A study of Mus musculus with 6 samples.

Results

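Lungs of all mice with the BMPR2-R899X transgene, whatever their right ventricular pressure, were compared with lungs of control mice, and the results below are the differences that both pressure groups shared. The comparison took all 6 arrays of the series, 4 R899X arrays against 2 control arrays, and 27022 of 45101 probe sets were bright enough to be tested. Control mice carried the SM22-rtTA transgene alone. R899X mice were heterozygous for SM22-rtTA and for TetO7-BMPR2-R899X, and 2 of them had near normal and 2 had high right ventricular systolic pressure (RVSP) when they were killed. All 3 groups shared the FVB/N strain, the SM22-rtTA transgene and doxycycline, which was given from 4 weeks of age for 9 weeks until death at 13 weeks. The series describes all mice as female, although the label of control 1 leaves the sex out. Each Affymetrix Mouse Genome 430 2.0 array held RNA of the whole lung homogenate of 1 mouse, so each group mean rests on n = 2 mice.

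BMPR2 is a type II receptor for bone morphogenetic proteins (BMPs). It pairs with type I receptors such as Acvrl1, which phosphorylate the transcription factors Smad1, Smad5 and Smad9, and target genes such as those of the Id family follow. Mutations of BMPR2 are the most common known cause of heritable pulmonary arterial hypertension, a disease of the small lung arteries that raises right ventricular pressure. R899X places a stop codon in the long cytoplasmic tail of the receptor. In these mice rtTA, a transactivator that binds its target promoter in the presence of doxycycline, was driven by the promoter of SM22 (Tagln), which is active in smooth muscle. The transgene was thus meant for smooth muscle, while the arrays measured all cells of the lung together. In such a homogenate, fewer cells of a type and less RNA per cell cannot be told apart.

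The homogenates carried the markers of lung on every array. Sftpc, the surfactant protein of alveolar type 2 cells, lay between 26212 and 40876, and Ager, a marker of alveolar type 1 cells, between 24227 and 33249. Median intensity per array ranged from 128 to 141. Control 1 and R899X normal RVSP 1 stood apart from the other 4 arrays on the leading principal component, with scores of -41.7 and -36.2 against 8.11 to 26.9. Their 3'/5' ratios of the beta-actin control probe sets, a sign of RNA quality, were 1.89 and 1.64. Control 2 had 1.45 and the other R899X arrays 1.27 to 1.36, so the ratio of both controls was above that of 3 of the 4 R899X arrays. The part of these differences in the results was not tested beyond adding the ratio to the fit and leaving arrays out. Leaving out both distant arrays left 1 control. Each ± gives the standard error of a log2 difference in limma, a linear model that shares information on the spread across probe sets.

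No probe set passed the test of all R899X mice against controls. Of 27022 probe sets, 0 (0%) reached an adjusted p under 0.05 in limma, and the smallest adjusted p in limma was 0.832. An unadjusted p under 0.05 was reached by 1601 probe sets (5.92%), where 1351 would be reached if no probe set differed. Below 0.01 there were 270 (0.999%). The 1601 were higher in R899X mice for 869 (3.22%) and lower for 732 (2.71%). With R899X normal RVSP or R899X high RVSP alone against the same 2 controls, 0 probe sets (0%) passed in each, and 0 (0%) passed between the pressure groups. An exact permutation test of 4 against 2 arrays has 15 splits and cannot go below p = 0.0667, so none was used.

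Because nothing passed, the shared differences are described by whether the groups overlapped. All 4 R899X arrays lay above both controls for 2031 probe sets (7.52%) and below both for 2083 (7.71%). If the order of the arrays were random, each direction would be expected with a probability of 0.0667. Both shares are near that level, so the counts alone do not show a difference between the groups. When a difference of 2-fold or more was also required, 33 probe sets (0.122%) remained on the higher side and 21 (0.0777%) on the lower side. With an unadjusted p under 0.01 the counts were 169 higher (0.625%) and 94 lower (0.348%). From these the genes named next were taken, 12 in each direction, with the largest difference that both pressure groups reached. Their differences therefore chose them and are given as a description, with no test.

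Of the genes named on the higher side, Twsg1, Fzd4, Nrg1 and Ntn5 are given first, an order chosen after their values were seen. Twsg1 (twisted gastrulation) is a secreted protein that binds BMPs and changes their access to receptors. Its named probe set read 315 and 216 in the controls, 560 and 494 in R899X lungs with normal RVSP, and 651 and 938 in those with high RVSP. The log2 difference between all R899X mice and controls was 1.25 ± 0.22, and every R899X lung lay above both control lungs. Fzd4, a receptor for Wnt ligands and norrin found in vessels, read 115 and 88.3 in the controls against 210, 214, 288 and 251 in R899X lungs. Its log2 difference was 1.12 ± 0.21, again without overlap. Nrg1 (neuregulin 1), a ligand of ErbB receptors, was dim, at 21.4 and 46.7 in the controls and 84.9, 133, 144 and 121 in R899X lungs. On the log2(intensity + 16) scale its difference was 1.48 ± 0.31, a scale that understates differences of dim probe sets. Ntn5, a member of the netrin family of secreted guidance proteins, read 20.7 and 50.1 in the controls and between 101 and 147 in R899X lungs, a log2 difference of 1.45 ± 0.31.

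Tmem87a, which encodes a transmembrane protein of the Golgi, had the largest difference of all named genes and also the largest spread. It read 65.1 and 65.4 in the controls, 708 and 93.5 in R899X lungs with normal RVSP, and 725 and 713 in those with high RVSP. The log2 difference was 2.48 ± 0.61. Of the 4 R899X lungs 3 were nearly equal and far above the controls, while R899X normal RVSP 2 lay close to the controls, and the annotation gives no other probe set for this gene. Mid2, a ubiquitin ligase that binds microtubules, read 119 and 170 in the controls against 278, 399, 456 and 403 in R899X lungs. Its log2 difference was 1.32 ± 0.23. Ate1, the transferase that adds arginine to protein ends, read 137 and 181 against 332, 340, 416 and 537. The fitted difference was 1.26 ± 0.20. The other genes of this direction were Uhmk1 (1.64 ± 0.46), Tspan18 (1.36 ± 0.28), Brox (1.30 ± 0.22), Immt (0.998 ± 0.21) and the immunoglobulin kappa gene Igk (1.33 ± 0.31). Uhmk1 is a protein kinase, Tspan18 a tetraspanin and Immt an organiser of the inner mitochondrial membrane.

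**Figure D1:**
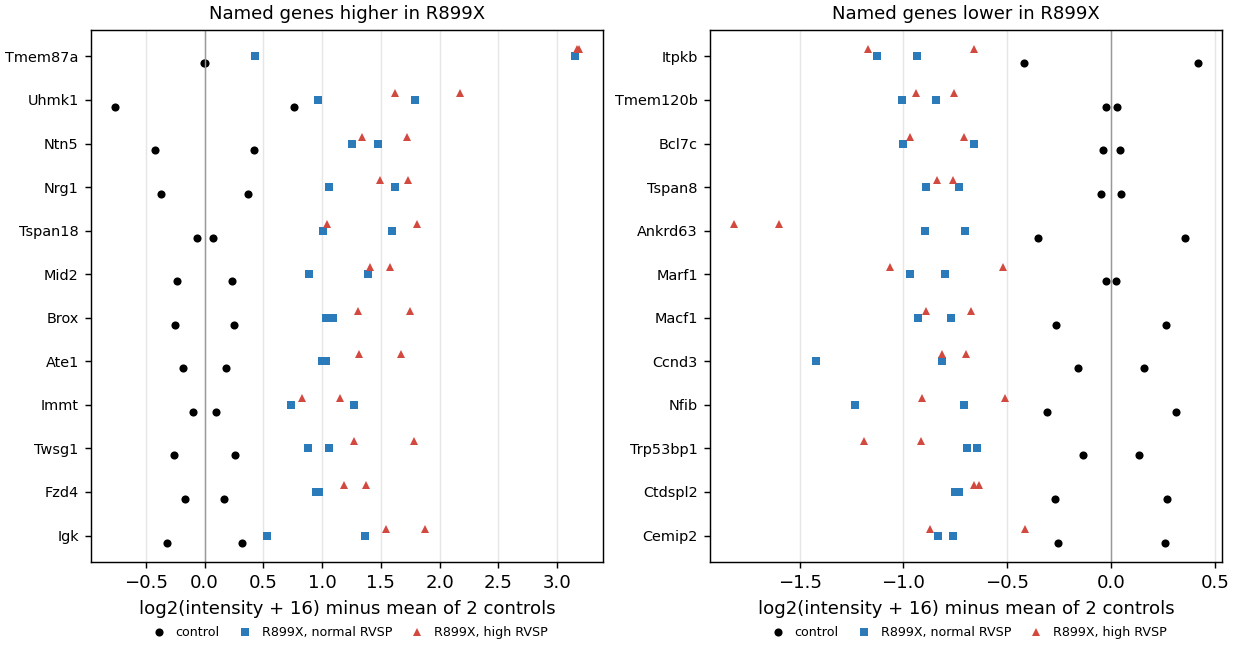
The named genes that were higher (left) and lower (right) in R899X lungs, with 1 point per array on the log2(intensity + 16) scale, drawn as the distance from the mean of the 2 controls. Every R899X point lies on 1 side of both control points because the genes were chosen that way; Tmem87a shows 1 R899X normal RVSP array near the controls, and for Ankrd63 the high RVSP arrays lie farther out than the normal RVSP arrays.

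The genes that were lower in all 4 R899X lungs had smaller differences, between -1.25 and -0.69 on the log2 scale. Ankrd63, an ankyrin repeat protein, read 435 and 721 in the controls, 294 and 338 in R899X lungs with normal RVSP, and 175 and 148 in those with high RVSP. R899X minus control gave -1.25 ± 0.24. Marf1, an endoribonuclease first described in oocytes, read 462 and 479 in the controls and 232, 264, 323 and 217 in R899X lungs. The log2 difference came to -0.84 ± 0.21, with controls that were close to each other. Nfib, a transcription factor required for lung maturation, read 1960 and 1271 in the controls and 663, 960, 1104 and 833 in R899X lungs. On the log2 scale it differed by -0.84 ± 0.23. Ccnd3 (cyclin D3), which drives cells into S phase, read 175 and 137 against 47.9, 81.3, 89.5 and 81.5. That is a log2 difference of -0.94 ± 0.27, and R899X normal RVSP 1 was the lowest array. The 2 other tested Ccnd3 probe sets, both brighter, went the other way with overlap, at 0.17 ± 0.14 and 0.09 ± 0.20. The rest were Itpkb (-0.97 ± 0.27), Tmem120b (-0.89 ± 0.20), Bcl7c (-0.83 ± 0.24), Tspan8 (-0.81 ± 0.22), Macf1 (-0.82 ± 0.18), Trp53bp1 (-0.86 ± 0.22), Ctdspl2 (-0.69 ± 0.19) and Cemip2 (-0.72 ± 0.21). Itpkb phosphorylates inositol trisphosphate, Macf1 links microtubules to actin, and Trp53bp1 acts in the repair of DNA breaks. The named Trp53bp1 probe set carries the suffix of sets that can cross-hybridise. Its 5 other tested probe sets overlapped with the controls, and the brightest gave -0.14 ± 0.15.

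The contrasts of each pressure group with control share the 2 control arrays, so they are given side by side and not as separate evidence. For Twsg1 the log2 difference from control was 0.97 ± 0.26 with normal RVSP and 1.53 ± 0.26 with high RVSP. Fzd4 gave 0.96 ± 0.24 and 1.28 ± 0.24, and Mid2 gave 1.14 ± 0.26 and 1.49 ± 0.26. On the lower side Tspan8 gave -0.81 ± 0.25 and -0.80 ± 0.25, and Marf1 gave -0.88 ± 0.24 and -0.79 ± 0.24. Between the pressure groups, 1 of the 24 named genes had an unadjusted p under 0.05 in limma. This was Ankrd63, at -0.80 ± 0.27 with normal RVSP and -1.71 ± 0.27 with high RVSP (unadjusted p = 0.010 and adjusted p = 0.9996 in limma). Without control 1 and R899X normal RVSP 1, the difference of all remaining R899X mice from control was 1.46 for Twsg1, 1.29 for Fzd4, 1.80 for Tmem87a and -1.56 for Ankrd63. It shrank by more than 1.5 times for Uhmk1 (1.08), Itpkb (-0.60), Macf1 (-0.51), Nfib (-0.40), Ctdspl2 (-0.43) and Cemip2 (-0.44).

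Promoter sequences are shown for 3 named genes. Twsg1 and Fzd4 were taken as members of the BMP and Wnt pathways, and Marf1 as the gene that led the lower side for agreement among probe sets. Each covers 250 bases before to 50 bases after a start site in RefSeq for assembly GRCm38.p6 and is written 5′ to 3′ on the strand of the gene. Capitals mark GGCGCC, an element of Smad1 and Smad5 target promoters that reads alike on both strands, and CAGAC or its complement GTCTG, the Smad binding element. The Twsg1 window is chr17:65951138-65951437 on the minus strand, the Fzd4 window chr7:89404116-89404415 on the plus strand, and the Marf1 window chr16:14159225-14159524 on the minus strand.
Twsg1: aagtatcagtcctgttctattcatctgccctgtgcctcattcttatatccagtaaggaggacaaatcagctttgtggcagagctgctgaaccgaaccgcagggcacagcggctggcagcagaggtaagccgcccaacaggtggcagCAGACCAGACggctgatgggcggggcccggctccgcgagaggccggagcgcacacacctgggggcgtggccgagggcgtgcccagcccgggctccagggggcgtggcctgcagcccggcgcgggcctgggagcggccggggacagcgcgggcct
Fzd4: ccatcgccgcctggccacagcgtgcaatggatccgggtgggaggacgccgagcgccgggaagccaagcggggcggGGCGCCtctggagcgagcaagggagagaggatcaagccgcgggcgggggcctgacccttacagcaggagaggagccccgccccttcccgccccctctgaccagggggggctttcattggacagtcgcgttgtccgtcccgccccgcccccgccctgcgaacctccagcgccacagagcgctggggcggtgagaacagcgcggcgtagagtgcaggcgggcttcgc
Marf1: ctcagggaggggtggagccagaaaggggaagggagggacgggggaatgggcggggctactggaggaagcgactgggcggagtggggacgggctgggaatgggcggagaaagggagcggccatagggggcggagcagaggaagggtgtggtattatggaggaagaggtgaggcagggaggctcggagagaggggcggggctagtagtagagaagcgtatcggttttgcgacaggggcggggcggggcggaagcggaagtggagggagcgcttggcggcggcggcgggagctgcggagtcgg
The Twsg1 window held CAGAC 2 times in direct succession and no GGCGCC, the Fzd4 window held GGCGCC once and no CAGAC, and the Marf1 window held neither. Among the 18 genes named as higher here and for agreement below, 14 matched the table, with 18 promoters, of which 16.7% held GGCGCC and 66.7% held CAGAC or GTCTG. Among the 17 genes named as lower, 15 matched, with 16 promoters, of which 4 held the former and 8 the latter. All 32851 promoters of the table held them in 11.9% and 49.6%. A match describes letters in these windows and was not tested as a site.

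Agreement among probe sets of a gene was the next question, since probe sets of a gene read different stretches of its transcripts on the same arrays. Among 5937 genes with at least 2 tested probe sets, all probe sets lay above the controls without overlap for 29 genes (0.488%) and below them for 15 (0.253%). At least 1 probe set without overlap in each direction was found in 138 genes (2.32%), a looser criterion than agreement of all probe sets. Of the genes with all probe sets agreeing, 28 and 14 had just 2 probe sets, among 3361 genes with that number. Of those 3361 genes, where the criteria are alike, 24 had their probe sets without overlap in opposite directions. When a probe set was higher without overlap, another probe set of its gene was so too in 13.0% of 3052 ordered pairs, against 8.80% of all 16236 probe sets of these genes. It was lower without overlap in 5.34%, against 6.90%. When a probe set was lower, another was lower in 11.5%, against 6.90%, and higher in 6.20%, against 8.80%. Probe sets of a gene thus shared a direction more often than they opposed each other, yet most others overlapped with the controls.

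For most named genes the other probe sets did not show the difference of the named one. Of the 12 genes named as higher, 9 had other tested probe sets, 17 in all, of which 11 had the same sign and 4 also had no overlap. Of those named as lower, 10 had 28 others, of which 15 had the same sign and 4 had no overlap. A probe set with a higher mean intensity than the named one existed for 18 of these 19 genes, the exception being Igk. The brightest one was separated the same way for Mid2 and Marf1 alone. For Igk the 1 other tested probe set went the other way with overlap, at -0.29 ± 0.24.

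Twsg1 shows how far probe sets of a gene can differ. A brighter probe set than the named one read 724 and 800 in the controls and 1137, 1090, 1349 and 2062 in R899X lungs, a log2 difference of 0.83 ± 0.19 without overlap. The brightest of all read 1989 and 2995 in the controls and 2114, 1943, 2426 and 2838 in R899X lungs, a log2 difference of -0.08 ± 0.18. For Ate1, 3 of 5 tested probe sets were higher without overlap, at 1.26 ± 0.20, 0.88 ± 0.19 and 0.33 ± 0.14, while the brightest gave -0.11 ± 0.15. The 2 brighter Fzd4 probe sets gave 0.36 ± 0.39 and 0.22 ± 0.16 and overlapped with the controls. Macf1 and Itpkb were lower in 1 probe set each, and their brightest gave -0.12 ± 0.14 and 0.09 ± 0.15. Of the 6 other Nfib probe sets, 1 was lower without overlap (-0.38 ± 0.18) and the others ranged up to 0.38 ± 0.37.

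**Figure D2:**
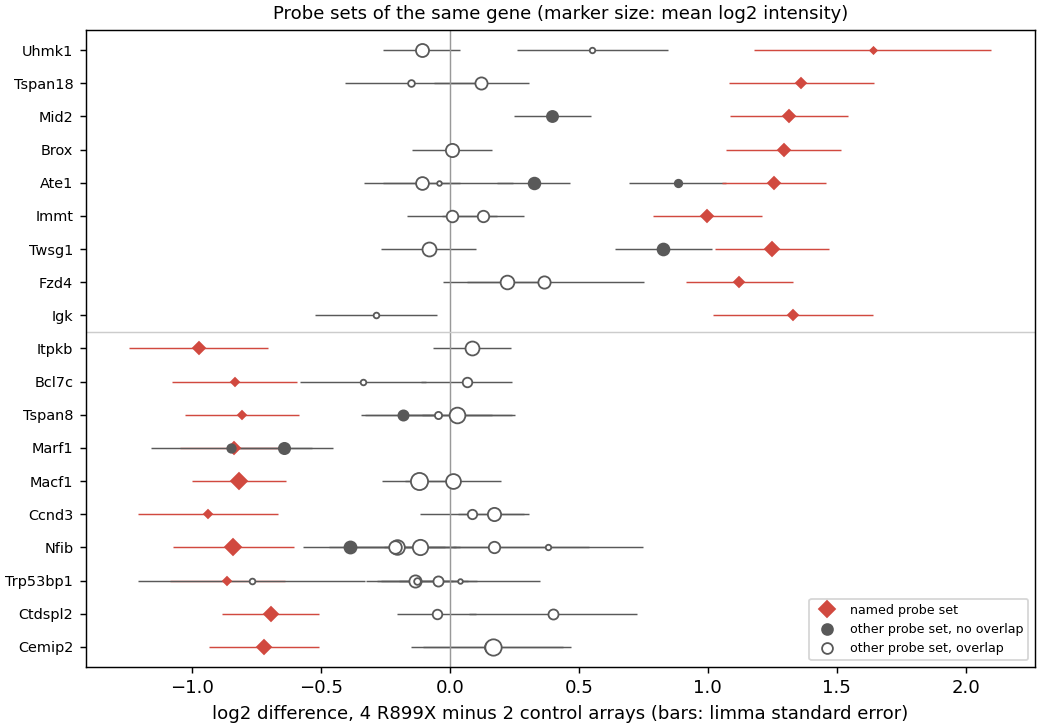
Log2 difference between all R899X and control arrays for each tested probe set of the 19 named genes with more than 1, with bars for the standard error from limma and marker size for mean log2 intensity. Diamonds are the probe sets that named the gene and filled circles are other probe sets without overlap; most other probe sets lie near 0, and those of Mid2, Marf1, Twsg1 and Ate1 include others on the same side.

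The genes whose probe sets all agreed were led, on the higher side, by Depp1, a FoxO-responsive regulator of autophagy. Its 2 probe sets read 2714 and 3837 in the controls against 6528, 5279, 6235 and 5718, and 1300 and 1817 against 2729, 2658, 3065 and 2752. Their log2 differences were 0.87 ± 0.17 and 0.86 ± 0.16, and normal and high RVSP mice were alike, at 0.86 ± 0.20 and 0.88 ± 0.20 for the brighter. Ddo, the oxidase of D-aspartate, read 355 and 302 in the controls and 463, 725, 768 and 654 in R899X lungs with its brighter probe set. Its log2 differences were 0.94 ± 0.21 and 0.59 ± 0.22. Dapp1, an adaptor of phosphoinositide signalling in B cells, gave 0.70 ± 0.20 and 0.90 ± 0.30. Sbspon gave 0.92 ± 0.34 and 0.63 ± 0.26, and the mitochondrial creatine kinase Ckmt1 0.54 ± 0.21 and 0.78 ± 0.27. The sulfotransferase Sult1d1 gave 0.76 ± 0.30 and 0.50 ± 0.30. The lack of overlap of its brighter probe set rests on 345 in control 2 against 346 in R899X high RVSP 2. Without control 2 the larger values of Dapp1 and Ckmt1 became 0.52 and 0.39. Cldn3, a tight junction protein of epithelia that was picked out after its values were seen, had the most probe sets in agreement, 4 of 4 higher by at least 0.29. Without control 1 and R899X normal RVSP 1, Depp1 gave 0.55 and 0.61, and the brighter probe sets of Sbspon and Sult1d1 gave 0.35 and 0.40.

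On the lower side Marf1 led with 3 of 3 probe sets. Its brightest read 1486 and 1003 in the controls and 723, 651, 964 and 798 in R899X lungs, a log2 difference of -0.64 ± 0.19, and the other gave -0.85 ± 0.31. Tet2, an enzyme that oxidises methylated cytosine, gave -0.66 ± 0.22 and -0.57 ± 0.26. Traf1, an adaptor of TNF receptors, gave -0.60 ± 0.15 and -0.51 ± 0.16. Its probe sets were lower by different amounts in the pressure groups. One gave -0.91 ± 0.17 with normal RVSP and -0.28 ± 0.17 with high RVSP, and the other gave -0.43 ± 0.18 and -0.59 ± 0.18. Rcbtb1 gave -0.52 ± 0.20 and -0.48 ± 0.26, and Ago4, an Argonaute protein that binds small RNAs, -0.41 ± 0.15 and -0.31 ± 0.15. The small heat shock protein Hspb1 gave -0.47 ± 0.17 and -0.46 ± 0.20. The second of its probe sets carries the suffix of sets that can cross-hybridise. Without control 1 and R899X normal RVSP 1 the Marf1 probe sets gave -0.40, -0.31 and -0.82 and those of Tet2 -0.27 and -0.18, while Rcbtb1 gave -0.85 (brighter) and -0.30 (dimmer). Without control 2 the brighter Rcbtb1 probe set gave -0.19.

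Genes of the BMP pathway are described from the receptors to the targets, with the brightest probe set of each gene unless stated. Over all 12557 genes tested, 49.9% were higher, 783 (6.24%) were higher without overlap and 783 (6.24%) lower without it, and the median log2 difference was -0.00. Bmpr2 itself was read by 3 probe sets. The brightest read 19768 and 15872 in the controls and 18835, 16849, 17087 and 15398 in R899X lungs, a log2 difference of -0.06 ± 0.15. The others gave 0.10 ± 0.19 and 0.68 ± 0.60. The latter, the intermediate in brightness, read 436 and 2047 in the controls and 657, 1987, 1928 and 2170 in R899X lungs, so the arrays that were low were control 1 and R899X normal RVSP 1, the pair that stood apart. All 3 Bmpr2 differences changed sign without control 1. Whether a probe set reads the transgene transcript was not established, so Bmpr2 does not check the genotype. Tagln, whose promoter drives rtTA, read 4115 and 4739 in the controls and 5622, 4549, 4330 and 4124 in R899X lungs, a log2 difference of 0.07 ± 0.14. Probe sets of the Y chromosome (Uty, Kdm5d, Eif2s3y) read at most 38.8 on every array, and Xist, which is transcribed from the inactive X chromosome, read 4646 to 7705 with its brightest probe set.

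Of 16 receptors and Smads measured, 1 was higher and 1 lower without overlap. Each is 6.25%, against 6.24% of all genes. Acvrl1, the type I receptor of BMP9 and BMP10 in endothelium, read 3094 and 2947 in the controls and 3680, 3899, 3498 and 4088 in R899X lungs. The fitted difference was 0.32 ± 0.13, with 0.33 ± 0.15 for normal and 0.32 ± 0.15 for high RVSP, but its other probe set gave -0.01. Smad5, which carries the signal to the nucleus, read 1103 and 1407 in the controls and 1066, 997, 1101 and 914 in R899X lungs. R899X minus control gave -0.29 ± 0.16, and its other probe sets gave 0.11 and 0.33. The difference was -0.12 without control 2 and -0.49 without control 1 and R899X normal RVSP 1, and the lack of overlap rests on 1103 in control 1 against 1101 in R899X high RVSP 1. Of 14 ligands and modulators, Chrdl1, a secreted BMP antagonist, was lower without overlap, at 1216 and 1069 in the controls and 927, 862, 935 and 942 in R899X lungs. The log2 difference came to -0.31 ± 0.14, while the other Chrdl1 probe sets gave -0.17 and 0.24. The Twsg1 values are those given above. None of the 13 BMP target genes was separated. Id1, the best known of them, read 1170 and 2244 in the controls and 1915, 1650, 2355 and 1855 in R899X lungs. Its difference of 0.25 ± 0.25 became -0.22 without control 1. Smad6, an inhibitor that BMP signals induce, gave -0.19 ± 0.15, Id4 0.26 ± 0.19 and Hes1 0.33 ± 0.27, and the sign of each turned when the beta-actin ratio was added to the fit. The list's median was 0.10, with 10 of 13 members higher and none past the test, and it turned sign in 3 of 17 alternative settings.

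In the whole-lung homogenate, more smooth muscle and fibroblast genes were higher than lower, while endothelial markers went both ways. Of 16 smooth muscle contractile genes 13 were higher (81.25%) and 4 had no overlap (25%). The shares over all genes were 49.9% and 6.24%. Myl9, the regulatory light chain of smooth muscle myosin, read 2816 and 3127 in the controls and 4822, 3764, 3875 and 3969 in R899X lungs, a log2 difference of 0.46 ± 0.14. Acta2, smooth muscle actin, read 6972 and 7698 against 9730, 8824, 8524 and 8343, a difference of 0.27 ± 0.13. Both were highest in R899X normal RVSP 1. Cnn1 (calponin) gave 0.29 ± 0.16 and Tpm2 (a tropomyosin) 0.20 ± 0.12, while the other Tpm2 probe sets gave -0.24 and 0.26. The list's median was 0.12, at 0.27 with normal RVSP and -0.03 with high RVSP, and stayed between 0.03 and 0.23 in 17 alternative settings. Of 14 fibroblast and pericyte markers 9 were higher (64.3%) and 2 had no overlap (14.3%). These were the matrix proteoglycans Dcn (decorin) and Lum (lumican). Dcn read 2856 and 2790 in the controls and 4136, 3824, 3600 and 3652 in R899X lungs, a difference of 0.43 ± 0.12, and Lum gave 0.34 ± 0.18. Without control 1 and R899X normal RVSP 1 the differences were 0.30 for Myl9, 0.16 for Acta2 and 0.41 for Dcn.

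Of 15 endothelial markers measured, 7 were higher and 8 lower, with a median of -0.00, while 4 were higher and 1 lower without overlap. The latter are 26.7% and 6.67%, against 6.24% of all genes in each direction. Pecam1, the adhesion molecule of endothelial junctions, read 3293 and 4531 in the controls and 5169, 5466, 6112 and 5590 in R899X lungs. On the log2 scale it differed by 0.53 ± 0.16, 0.32 without control 1 and R899X normal RVSP 1, and at least 0.30 in every alternative setting tried. Emcn (endomucin) read 1620 and 1628 against 2794, 1798, 2480 and 2256, a difference of 0.50 ± 0.19. Esam, another junction protein, gave 0.28 ± 0.14. Sox17, a transcription factor of arterial endothelium, was the last of the 4, named here after its values were seen. It gave 0.20 ± 0.15, and its lack of overlap rests on 4089 in control 1 against 4109 in R899X normal RVSP 2. The Sox17 probe set carries the suffix of sets that can cross-hybridise. Flt1, a VEGF receptor, was lower, at 3391 and 3320 in the controls and 2930, 2923, 2846 and 2372 in R899X lungs, a difference of -0.28 ± 0.13. R899X high RVSP 2 was the lowest array for Flt1. Of 3 other tested Flt1 probe sets, 1 was also lower without overlap, and the 3 ranged from -0.23 to 0.34. Without control 1 and R899X normal RVSP 1, Esam gave 0.12.

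**Figure D3:**
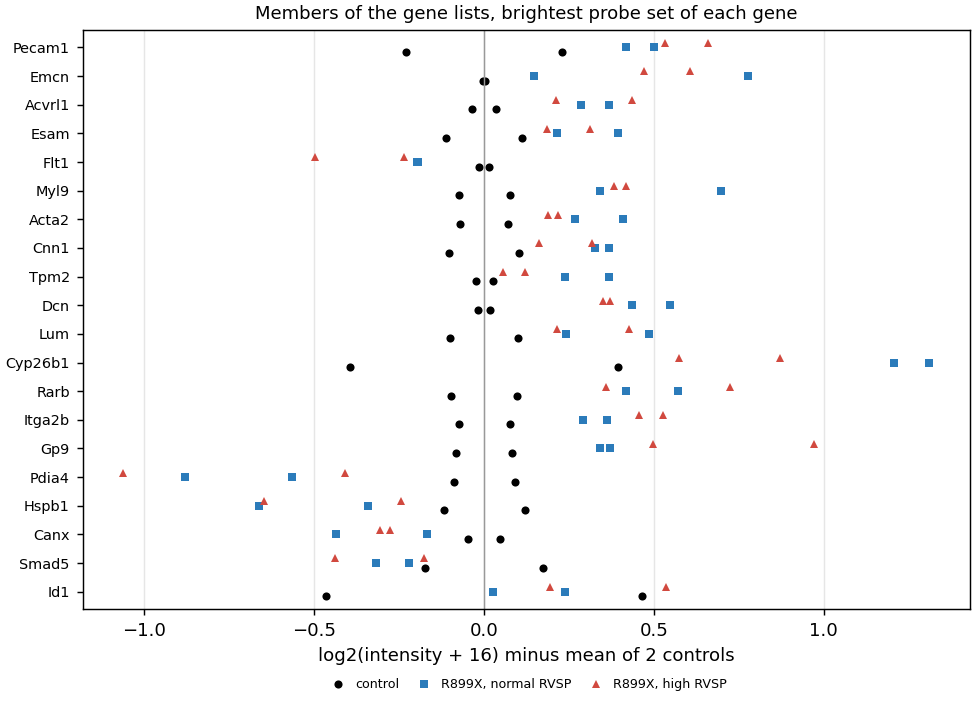
Members of the gene lists, with 1 point per array on the log2(intensity + 16) scale as the distance from the mean of the 2 controls, for the brightest probe set of each gene. Most genes shown have no overlap; Id1 overlaps with its controls, and the controls of Pecam1, Cyp26b1 and Id1 lie farther apart than those of Dcn or Emcn.

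Of the retinoic acid genes, 3 of 9 measured were higher without overlap and none lower, around a list median of -0.01. Over all genes, 6.24% were separated in each direction. Cyp26b1, the enzyme that breaks down retinoic acid, read 330 and 581 in the controls, 1111 and 1033 with normal RVSP, and 815 and 660 with high RVSP. That is a log2 difference of 0.99 ± 0.23, from 0.57 (without control 1 and R899X normal RVSP 1) to 1.38 over the alternative settings, and the normal RVSP mice were above the high RVSP mice. Rarb, a retinoic acid receptor and itself a target of retinoic acid, read 265 and 229 against 335, 374, 418 and 321, a difference of 0.52 ± 0.19. Rdh10, which makes retinal from retinol, gave 0.25 ± 0.15. Of 17 Wnt pathway genes, 1 was higher and 2 lower without overlap, of which Fzd2 is named after its values were seen. Lef1, a nuclear effector of Wnt signals, read 333 and 423 in the controls and 528, 743, 626 and 464 in R899X lungs, a difference of 0.61 ± 0.22. Sfrp5, a secreted Wnt inhibitor, gave -0.24 ± 0.29 with normal RVSP and -1.16 ± 0.29 with high RVSP, and the difference from control was -0.70 ± 0.25 in all. Wif1, another inhibitor, gave 0.41 ± 0.19 with overlap, and 0.23 without control 2. Among 15 vasoactive genes, Tbxa2r, the thromboxane receptor, read 180 and 247 in the controls and 342, 277, 298 and 337 in R899X lungs, a difference of 0.53 ± 0.21. Slc6a4, the serotonin transporter, was lower at -0.32 ± 0.19, and Tbxas1, thromboxane synthase, gave 0.29 ± 0.21 with overlap, and 0.10 without control 2. Tbxa2r gave 0.25 without control 1 and R899X normal RVSP 1.

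The list medians farthest from 0 were those of platelet markers, immediate early genes, adipocyte markers and ciliated cell markers, all on the higher side. Of 10 platelet markers 9 were higher, with a median of 0.33, and 3 had no overlap. Among all genes tested, 49.9% were higher and 6.24% were higher without overlap. Gp9, a subunit of the von Willebrand factor receptor, read 142 and 125 in the controls and 177, 173, 194 and 276 in R899X lungs, a difference of 0.55 ± 0.22. Itga2b, the fibrinogen receptor subunit, read 365 and 406 against 500, 475, 534 and 562, a difference of 0.41 ± 0.16. The chemokines Pf4 (0.36 ± 0.16) and Ppbp (0.54 ± 0.28) were highest in R899X high RVSP 2, and Ppbp overlapped with the controls. The platelet median stayed between 0.14 and 0.42 in the alternative settings. Of 18 immediate early genes 17 were higher, with a median of 0.28, and none of those 17 was separated. Atf3 (0.59 ± 0.27) and Zfp36 (0.44 ± 0.23) are examples, and Klf2, a flow-responsive factor of endothelium, was lower at -0.22 ± 0.13 without overlap. R899X normal RVSP 1 had the lowest immediate early score, at -0.46, below the controls at -0.34 and -0.02. The other R899X arrays lay between 0.05 and 0.44. The immediate early median ranged from 0.015 to 0.53 in the alternative settings. Of 6 adipocyte markers 4 were higher, with a median of 0.28 that became -0.09 with the lower 60% of probe sets, and so some members, left out. Cidec, a lipid droplet protein named after its values were seen, was higher without overlap, at 51.2 and 71.9 in the controls and 90.8, 113, 83.7 and 89.5 in R899X lungs. Its log2 difference was 0.51 ± 0.26, and 0.32 without control 1. Of 14 ciliated cell markers 13 were higher, with a median of 0.26, among them the dynein genes Dynlrb2 (0.54 ± 0.23) and Dnah5 (0.55 ± 0.25) and the tubulin-binding Tppp3 (0.26 ± 0.15). Control 1 had the lowest ciliated score, at -0.54 against -0.10 to 0.21 on the other arrays, and the median was -0.03 without control 1 and R899X normal RVSP 1. Without these arrays Dynlrb2 gave 0.12, Tppp3 0.11, Ppbp 0.13 and Zfp36 0.19.

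Of 20 heat shock and unfolded protein genes 16 were lower, with a median of -0.14, and 3 had no overlap (15%). Among all genes tested, 50.1% were lower and 6.24% were lower without overlap. Pdia4, a disulfide isomerase of the endoplasmic reticulum, read 517 and 455 in the controls and 256, 323, 224 and 361 in R899X lungs, a difference of -0.73 ± 0.23. The chaperone Canx (calnexin) gave -0.30 ± 0.13, with -0.22 and 0.16 in its other probe sets, and Hspb1 is given above. Control 1 had the highest score of this list, at 0.27 against -0.23 to 0.05 elsewhere, and its median was 0.04, with Canx at -0.18, without control 1 and R899X normal RVSP 1. Of 16 cardiac muscle markers 15 were lower, but none was separated. Csrp3 read 1124 and 945 in the controls and 1175, 826, 805 and 396 in R899X lungs, a difference of -0.46 ± 0.28, and Tnnt2, cardiac troponin T, gave -0.40 ± 0.27. The cardiac score ran from 0.54 in R899X normal RVSP 1 to -0.90 in R899X high RVSP 2, and its median was 0.17 with normal RVSP and -0.70 with high RVSP. Interferon-stimulated genes also differed in sign between the pressure groups, with medians of 0.20 and -0.37. The controls' own scores for this list were 0.40 and -0.22, and the median over all R899X mice turned from -0.10 to 0.21 without control 1 and R899X normal RVSP 1. Usp18, which limits interferon signals, was higher in all 4 R899X lungs (0.30 ± 0.16), while Oas2 gave -0.48 ± 0.24 with overlap. The lack of overlap of Usp18 rests on 463 in control 2 against 469 in R899X high RVSP 1. The part of heart or blood cells in these values was not tested.

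**Figure D4:**
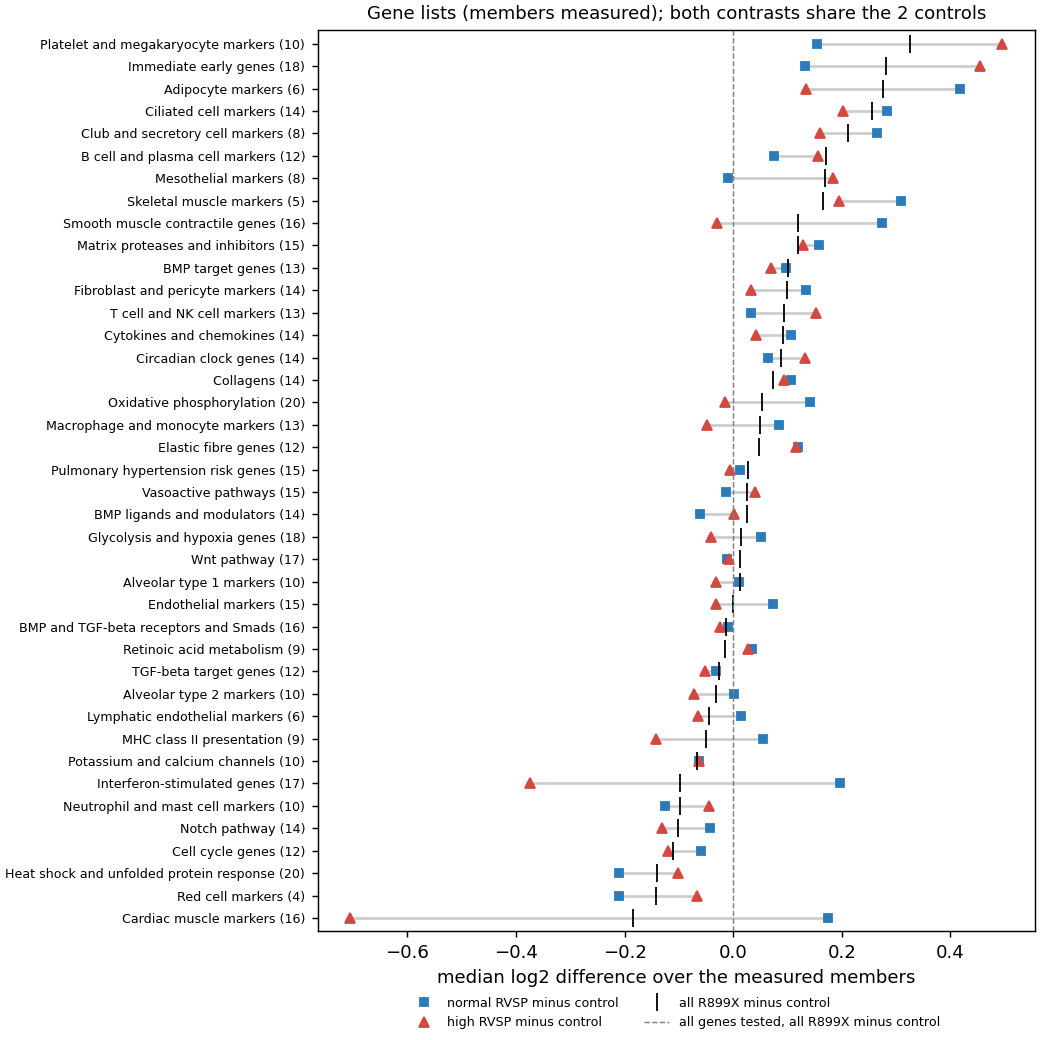
Median log2 difference from control over the measured members of each gene list with at least 4, for normal RVSP (squares), high RVSP (triangles) and all R899X mice (bars), with a dashed line for the median of all genes. Platelet, immediate early, adipocyte, ciliated and club cell lists lie on the higher side in both pressure groups, and cardiac and interferon lists lie on opposite sides.

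Over all 42 lists, 490 of 604 genes were measured, and 35 were higher and 17 lower without overlap. The share of all genes tested was 6.24% in each direction, so the higher count is near that level. At an unadjusted p under 0.05, 19 were higher and 6 lower, where the shares over all genes were 1.57% and 1.31%. None passed the test, and list medians ran from -0.18 to 0.33. Without control 1 or without control 2 the count of higher probe sets without overlap was 5730 or 6722, and that of lower ones 5461 or 7220, since a lone control is easier to clear.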

How the data were processed

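RNA of whole lung from 6 mice was measured on 6 arrays. The deposited values are intensities on a linear scale for 45101 probe sets, and their mean after trimming 2% at each end was 500.0 on every array. The sources used here do not say how probe brightness became these values. Per the labels' protocols, heparin was given ahead of death, saline was run through the right lung and RNA was purified on columns.

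Intensities were turned into log2(intensity + 16). Array medians spanned 0.13 on that scale, under a limit of 0.2, and no further scaling was applied. Left out were 64 control probe sets and the dimmest 40% (18015, with means below about 74.9). A mean for each group was fitted in limma 3.58.1 under R 4.3.3 (3 residual and 5.06 prior degrees of freedom, intensity trend). The mean of the R899X groups was set against control, two-sided, with Benjamini-Hochberg adjustment at 0.05. In the platform annotation 34958 probe sets had 1 gene symbol, 932 had several and 9211 were not listed. By gene identifier 34754 matched RefSeq genes, and 0 symbols changed. No probe coordinates are given because the annotation names no build.

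Named genes were single-symbol probe sets, clone and model names excepted. In each direction up to 12 genes with the largest difference shared by both pressure groups were taken, without overlap and with an unadjusted p under 0.01. Up to 6 genes were added whose probe sets all agreed, with up to 4 members of smallest p per described list, and Bmpr2, Tagln and sex-linked genes always. Members, rule and gene lists were chosen with earlier results of these data known. Lists used the brightest probe set of each gene. The fit was tested on simulated data. Replicate numbers follow accession order only. The labels name no batch, and p-values measure the spread between mice of these groups. Alternatives were pseudocounts of 1 and 64, other filters (none or the lower 60%), other scalings and models, the beta-actin ratio as a covariate, and leaving out arrays.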

Additional observations from a re-analysis of the deposited data

Results flagged for a closer look

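Among 96 probe sets and 42 list scores examined over the 4 R899X arrays, 6 probe sets had 1 array far from the other 3. The measure is the gap to the nearest array divided by the range, held against Dixon's 95% critical value, and chance gives about 1 in 20 such groups. It was 0.987 for Tmem87a (R899X normal RVSP 2), 0.839 for Ccnd3 (R899X normal RVSP 1) and 0.859 for Atf3 (R899X normal RVSP 1). It was 0.861 for Flt1 and 0.934 for Ppbp, both in R899X high RVSP 2, and 0.901 for the Bmpr2 probe set of intermediate brightness in R899X normal RVSP 1.

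In 2 of the 42 lists the scores of both normal RVSP arrays lay above both controls and those of both high RVSP arrays below both controls. High minus normal RVSP was -0.093 for glycolysis and hypoxia genes and -0.48 for thymus and lymph node markers, a list with 2 measured members. These differences between the pressure groups were not tested.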

How the results depend on the processing

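With 2 controls, 3 residual degrees of freedom and values that are intensities without a detection call, precision is limited by the number of arrays, and dim probe sets are understated. No paired analysis was possible because the labels give no replicate numbers that link mice across groups.

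The count past an adjusted p of 0.05 in limma was 0 in 14 of 17 alternatives. It was 228 without control 1 and R899X normal RVSP 1 together, where the spread comes from the high RVSP pair alone and the lone control is assumed to vary alike. Leaving out single arrays gave 0 to 6. The 6 came without control 2, and 1, Tmem87a, without R899X normal RVSP 2.

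The count at unadjusted p under 0.05 was 2509 without a filter, 987 with the lower 60% left out, 3139 without both distant arrays, and 676 to 3085 without single arrays. Without both distant arrays, probe sets without overlap were 7937 higher and 7825 lower. Without single arrays they were 2496 to 6722 higher and 2524 to 7220 lower. The lower count was 3611 without a filter and 1290 with the lower 60% left out. Genes whose probe sets all agreed were 532 higher and 380 lower without both distant arrays, 50 to 352 and 30 to 247 without single arrays, and 24 lower without a filter. Fewer arrays or probe sets make separation easier or rarer by construction. The beta-actin covariate was not run for overlap counts.

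None of 797 values of the 48 probe sets named for size or agreement changed sign in these alternatives. These probe sets were chosen for lack of overlap, so leaving out arrays could not turn their sign. Their constant sign is therefore no test of them. With the beta-actin covariate, log2 differences were -0.64 for Bmpr2 in its intermediate probe set and 0.12 in its brightest, -0.0088 for Id4, 0.037 for Smad6, -0.081 for Hes1 and -0.027 for Id1. Without both distant arrays, Bmpr2 gave -0.022 (intermediate), 0.059 (brightest) and -0.18 (dimmest), Id1 -0.27 and Tagln -0.11. Leaving out single arrays gave -0.42 to 1.77, -0.22 to 0.099 and -0.11 to 0.31 for these Bmpr2 probe sets, -0.22 to 0.71 for Id1 and -0.036 to 0.17 for Tagln. In each of these the sign turned without control 1, and for Tagln also without R899X normal RVSP 1 (-0.010). The cause was not tested. List medians changed sign in 91 of 714 values, over 35 of 42 lists.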

Other observations

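Probe sets that the platform annotation does not list were unevenly spread over the directions, a pattern examined after the data were seen. Of 27022 tested probe sets, 3551 (13.1%) were unlisted. Among those without overlap and with an unadjusted p under 0.01, 6 of 169 higher (3.55%) and 54 of 94 lower (57.4%) were unlisted. The named genes on the lower side were thus drawn from 37 eligible genes, against 152 on the higher side.

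The median deviation of the unlisted probe sets was 0.20 and 0.08 in the controls, -0.06 and -0.08 with normal RVSP, and 0.07 and -0.10 with high RVSP, so control 1 was the highest array and R899X high RVSP 1 lay near control 2. For all probe sets with an unadjusted p under 0.01, the unlisted share on the lower side was 57.3%. It was 23.9% without control 1 and 26.6% without control 1 and R899X normal RVSP 1. It ranged from 39.4% to 60% without each other array.

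Single genes from other lists also separated the 4 R899X arrays from both controls. Csf2, a growth factor of myeloid cells, was higher by 0.88 ± 0.28, and Mki67, a proliferation marker, lower by 0.50 ± 0.23, while Pcna, another, was higher by 0.22 ± 0.12. Ltf, a neutrophil granule protein, was lower by 0.63 ± 0.25. These genes were picked out after their values were seen, and none passed the test.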
